A study of Mus musculus with 5 samples.

Results

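Interferon regulatory factors (IRFs) are transcription factors that share a DNA-binding domain and act on interferon genes, on the genes that interferon induces and on the development of blood cells. The family was read here from every probe set whose gene symbol, as the platform annotation gives it or as updated by Entrez gene ID, was Irf1, Irf2, Irf3, Irf4, Irf5, Irf7, Irf8 or Irf9, dim probe sets included. Of these 8 genes, 7 had a probe set, and the signal of Irf2 was not analysed here. They had 9 of the 12422 probe sets that were not controls, since Irf3 and Irf7 had 2 probe sets each. The brightest probe set of each of the 7 genes passed the filter on dim signals, and these were 7 of the 5581 genes tested. The second Irf3 probe set was the only one of the 9 that did not pass.

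The RNA came from mouse peritoneal macrophages, the phagocytes of the abdominal cavity, and was measured on 5 Affymetrix MG-U74Av2 arrays. By its title the series asks how ethanol changes the induction of genes by poly IC. Poly IC, or polyinosinic polycytidylic acid, is a double-stranded RNA made in the laboratory that stands in for the RNA of a virus. The naive group was 1 array of untreated mice, with no strain, sex, age or pooling stated. The poly IC group was 2 pools of 12-week-old female F1 mice of the cross C57Bl/6 x C3H, with a dose of 0.1 mg per mouse stated for the second pool and none stated for the first. The poly IC plus ethanol group was 2 further pools of such mice, in which each mouse was given 0.1 mg of poly IC and an acute oral dose of 6 g/kg ethanol. The number of mice per pool, the route of poly IC and the time to harvest were not given in the sources used here. No array had ethanol without poly IC, so an effect of ethanol alone was not measured.

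In the textbook scheme, IRF3 is present before infection and is activated through RNA sensors and their kinases, after which the first interferon is made. Interferon then signals through JAK kinases and STAT factors, IRF9 acts as a subunit of the complex ISGF3, and ISGF3 raises transcription of IRF7, which widens interferon production. IRF1 is induced by interferon and by NF-kB and acts on antigen presentation and cell-autonomous defence, IRF5 acts on inflammatory cytokine genes, and IRF8 and IRF4 are known for roles in macrophage, dendritic cell and B cell development. Messenger RNA on an array does not show whether an IRF protein was activated.

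Values are MAS 5.0 signals, a linear brightness per probe set. Tests were made on log2(signal + 250) with limma, p-values were adjusted by Benjamini-Hochberg over all 5581 genes, and a gene was called at an adjusted p under 0.05. Fitted differences on this scale understate the change of dim genes. The spread came from 2 pairs of pools, and the naive array was assumed to vary like them. A difference in sex, age or handling between the naive and the treated mice cannot be told apart from treatment. Array medians lay between 768.6 and 902.0, and the 18S ribosomal control signal was 66548 in the second poly IC pool against 5113 to 19415 on the other 4 arrays. All 10 macrophage markers with a probe set were above the brightest unspiked control on every array. Their summed signal was 274529.7 in the naive sample and 330513 to 368212 in the 4 pools, and without Cd14 it was 227349.8 and 207348 to 226903. B cell markers were bright too, with a sum over 14 genes of 384387.5 in the naive sample and 158661.5 to 244429 in the pools. Signals are thus those of all cells in a sample, and the share of macrophages was not measured. Set beside the unspiked control, which lay between 299.6 and 443.8 by array, the brightest probe set of every IRF gene was above it on all 5 arrays.

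The upstream sequence of the members is shown because the family is itself regulated by the pathway it serves. Sequences are from RefSeq (GRCm38.p6), 250 bases before an annotated transcript start. All 8 genes were found, with 11 such windows, and the 3 windows printed are those of the first starts of Irf1, Irf8 and Irf4. They are written 5′ to 3′ on the plus strand, with motif matches in capitals: GAS (TTCNNNGAA, the STAT site) and an NF-kB site in Irf1, GAS and TATAAA in Irf8, and TATAAA alone in Irf4.
Irf1, chr11:53769764-53770013: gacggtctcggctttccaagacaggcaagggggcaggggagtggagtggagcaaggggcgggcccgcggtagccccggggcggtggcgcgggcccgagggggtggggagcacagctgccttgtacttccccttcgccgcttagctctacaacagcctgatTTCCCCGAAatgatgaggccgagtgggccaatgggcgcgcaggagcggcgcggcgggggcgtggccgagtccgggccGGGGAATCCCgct
Irf8, chr8:120736108-120736357: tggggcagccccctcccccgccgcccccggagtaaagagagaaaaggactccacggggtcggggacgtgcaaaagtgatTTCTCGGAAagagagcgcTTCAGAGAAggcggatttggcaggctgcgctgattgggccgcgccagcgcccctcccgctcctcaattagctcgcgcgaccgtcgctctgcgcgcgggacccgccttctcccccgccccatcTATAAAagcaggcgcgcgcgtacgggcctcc
Irf4, chr13:30748983-30749232: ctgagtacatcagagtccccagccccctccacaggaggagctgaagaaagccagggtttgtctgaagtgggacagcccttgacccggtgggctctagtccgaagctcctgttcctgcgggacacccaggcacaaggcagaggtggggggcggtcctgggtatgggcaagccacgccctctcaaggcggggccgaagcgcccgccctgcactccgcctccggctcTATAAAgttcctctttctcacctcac

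The GAS match of Irf1 lay 90 to 82 bases before the start and read TTCCCCGAA. Its NF-kB match lay 13 to 4 bases before the start. Irf8 held a pair of GAS matches, TTCTCGGAA from 171 bases and TTCAGAGAA from 153 bases before the start. The Irf4 window held TATAAA, from 26 bases before the start, and neither a GAS match nor an NF-kB match. The Irf7 window also held TATAAA alone, from 29 bases before the start, in a stretch that lies inside the annotated span of the gene. Irf2 held the single match in the family to the ISRE (GAAA, 2 bases of any kind and GAAA, the element that IRFs bind), with a GAS and an NF-kB match. The windows of Irf3, Irf5 and Irf9 and the second starts of Irf1 and Irf8 held none of the 4 motifs searched. The only Irf5 window and the second windows of Irf1, Irf8 and Irf9 lay inside the annotated spans of their genes. Bases before the annotated span of Irf5 were thus not searched. Both strands were searched, and GAS was found in 3 of the 8 genes, NF-kB and TATAAA in 2 and 3, and the ISRE in 1. Of 27025 genes with such windows in the RefSeq table, 8.13% held GAS, 8.23% NF-kB, 14.3% TATAAA and 3.46% the ISRE. These matches are letters in a window and not measured sites.

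**Figure D1:**
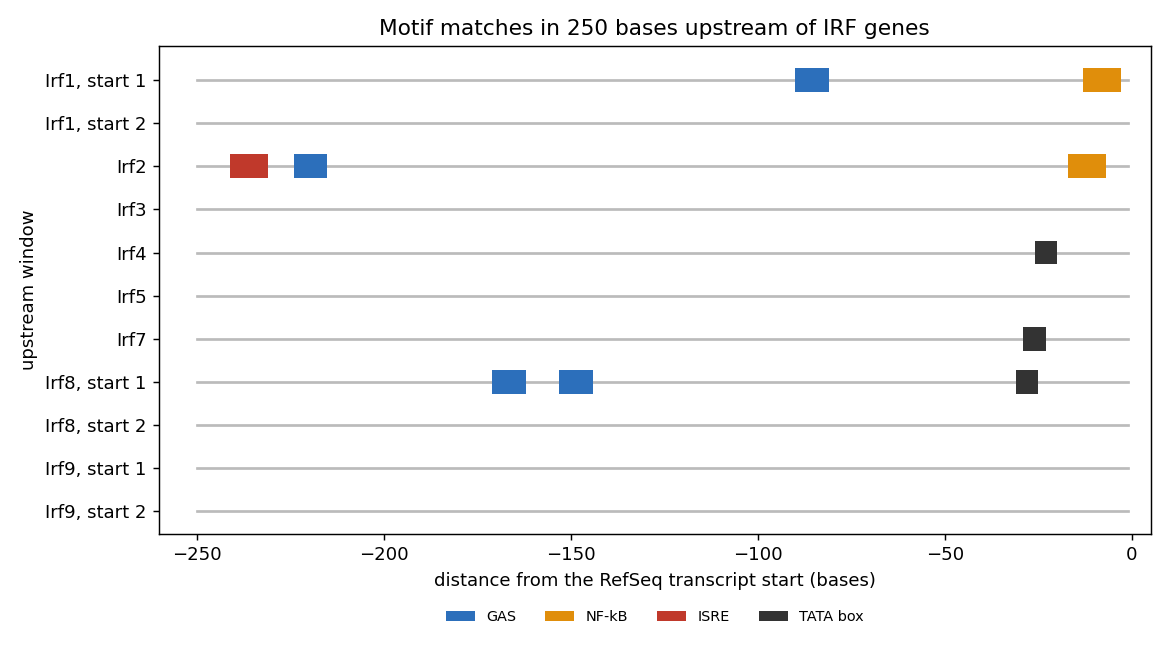
Positions of motif matches in the 250 bases before 11 RefSeq transcript starts of the 8 IRF genes; each line is a window, the x axis is the distance from the start in bases and a block is a match on either strand. The first starts of Irf1 and Irf8 and the window of Irf2 hold GAS matches, Irf4 and Irf7 hold TATAAA alone, and 6 windows hold no match.

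Poly IC was followed by a higher signal of Irf7, Irf1, Irf9 and Irf8 and a lower signal of Irf4. Irf7 was 14.1-fold, Irf1 4.04-fold, Irf9 2.89-fold and Irf8 1.52-fold above the naive array in mean signal, and Irf4 was 5.18-fold below it. These 5 of 7 genes passed the test (4 rose and 1 fell), which is 71.4% where 31.8% of all genes tested passed. Both poly IC pools were on the same side of the naive array for all 7 genes, as they were for 87.1% of all genes. Irf3 and Irf5 were lower in signal but were not called. The median difference was 0.58 over the 7 genes and -0.16 over all genes. Of all genes tested 11.7% were called higher and 20.1% were called lower.

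**Figure D2:**
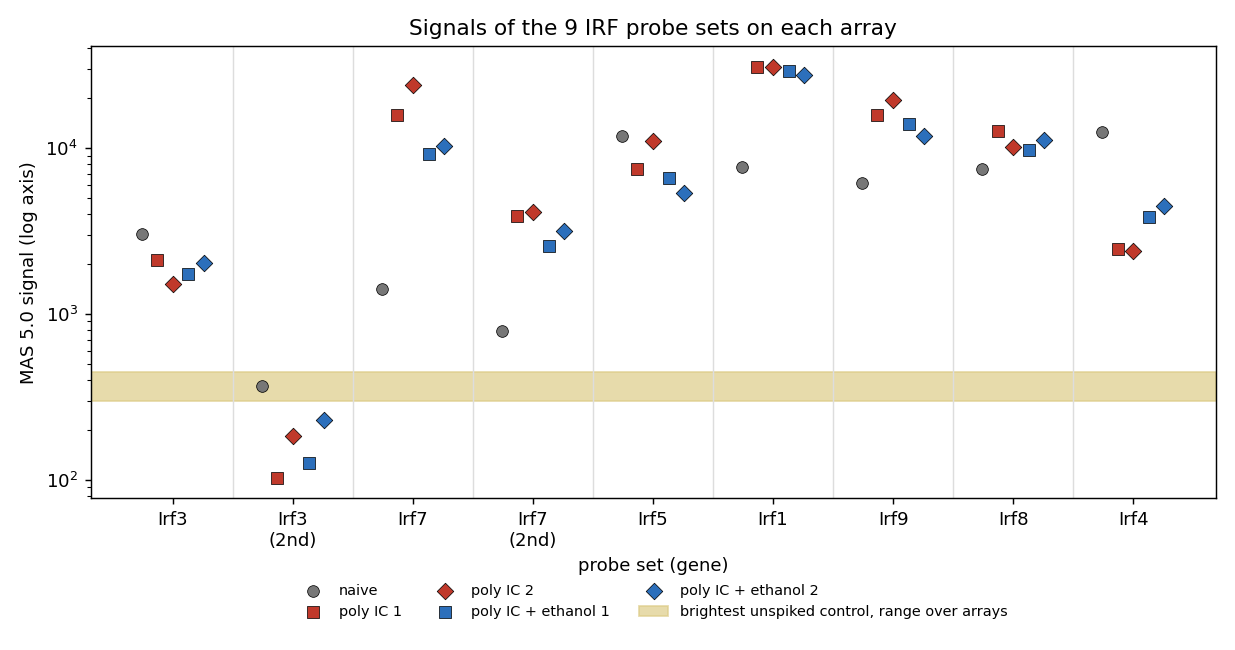
MAS 5.0 signal of the 9 IRF probe sets on each of the 5 arrays, on a log axis; each point is 1 array (the naive sample or a pool), and the band is the range over arrays of the brightest unspiked control. Irf7 lies lowest on the naive array and highest in the poly IC pools at both of its probe sets, Irf4 runs the other way, and the second Irf3 probe set lies within or below the band.

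Irf7 was the member with the widest range. Its signal was 1413 on the naive array, 15776 and 23989 in the poly IC pools and 9247 and 10304 in the ethanol pools. The groups did not overlap, every treated pool was far above the naive array, and both ethanol pools were below both poly IC pools. The fitted rise with poly IC was 3.57 (SE 0.239, 95% interval 3.03 to 4.10, adjusted p 3.36e-06), the 54th largest in absolute size among the 5581 genes. The second Irf7 probe set, dimmer at 790.0 in the naive sample and 3885 and 4106 after poly IC, rose by 2.03 when every probe set was tested on its own (adjusted p 0.0014). Both probe sets thus passed the test in the same direction, and their levels cannot be set against each other.

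Irf1, which acts on antigen-processing and guanylate-binding protein genes, had the brightest probe set of the family. Its signal was 7660.2 in the naive sample, 30905 and 31046 with poly IC, and 29028 and 27507 with poly IC plus ethanol. The treated pools lay close together and all were above the naive array. The rise with poly IC was 1.98 (SE 0.138, adjusted p 4.28e-06).

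Irf9, the DNA-binding subunit of ISGF3, had a signal of 6121.5 in the naive sample, 15824 and 19604 with poly IC, then 13937 and 11889 with ethanol added. All 4 pools were above the naive array, and the groups did not overlap. The rise with poly IC was 1.49 (SE 0.187, adjusted p 0.000268).

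Irf8, which macrophages and dendritic cells need for their development, changed least among the called members. Its signal was 7512 in the naive sample, 12672 and 10147 in the poly IC pools and 9757 and 11207 in the ethanol pools. The treated pools were all above the naive array but overlapped between the treatments. The rise with poly IC was 0.58 (SE 0.192, 95% interval 0.15 to 1.01, adjusted p 0.0436). It was no longer called without the first poly IC pool (0.42, adjusted p 0.24) or without the second (0.74, adjusted p 0.0517).

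Irf4, known for its part in B cell and plasma cell differentiation and in alternatively activated macrophages, fell. Its signal was 12523.5 in the naive sample, 2455 and 2387 with poly IC, and 3846 and 4459 with poly IC plus ethanol. The naive array was highest, the poly IC pools were lowest and nearly equal, and the ethanol pools lay between them without overlap. The fall with poly IC was -2.26 (SE 0.198, 95% interval -2.70 to -1.81, adjusted p 2.26e-05).

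B cell markers moved with Irf4. All 12 tested of 16 listed B cell markers fell with poly IC (median -1.51), and their sum over the 14 with a probe set was 384387.5 in the naive sample, 173035 and 158661.5 in the poly IC pools, then 227207 and 244429 with ethanol. Cd79b, a subunit of the B cell receptor, was at 62099.9 in the naive sample, 5064 and 3808 with poly IC, then 14953 and 17032 with ethanol. That is the same order of groups as for Irf4. Of the 14 markers, none was below the brightest unspiked control in the naive sample, 3 and 2 were in the poly IC pools and 1 in each ethanol pool. The order was not particular to B cell markers. Of the 10 tested macrophage markers 1 rose and 2 fell with poly IC. Gata6, which fell, was at 7217.7 in the naive sample, 1169 and 1531 with poly IC, then 1851 and 2188 with ethanol. The part of B cells or macrophages in the Irf4 result was not tested. In such bulk RNA fewer cells of a type and less RNA per cell cannot be told apart. No tested plasma cell marker was called lower with poly IC. Of the 3 tested of 5 listed, 2 rose (Prdm1 by 1.70 and Xbp1 by 0.59), and both are also listed as IRF4 targets. Jchain, at 972.4 in the naive sample and 573.3 to 758.5 in the 4 pools, was not called (-0.42). Markers of dendritic cells, which also use Irf4 and Irf8, summed to 41546.5 in the naive sample and 10707 to 12543 in the 4 pools. One gene carried most of that sum, Ltb, at 33167 in the naive sample and 5976.5 to 6904 in the pools, and without it the sum was 8379 and 4730.2 to 6559.7. Of the 5 tested dendritic cell markers 2 fell (Ltb and Ccr7), while Itgax (0.12), Flt3 (-0.56) and Xcr1 (0.91) were not called.

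**Figure D3:**
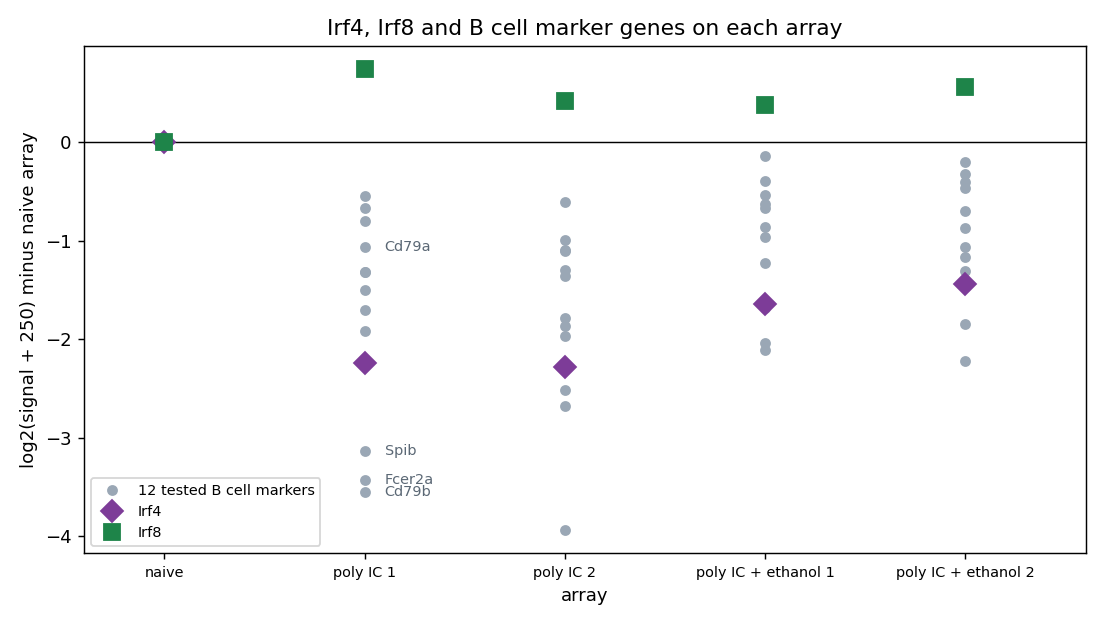
Difference of log2(signal + 250) from the naive array for Irf4, Irf8 and the 12 tested B cell markers on each of the 5 arrays; a point is 1 gene on 1 array. Irf4 lies at -2.24 and -2.28 in the poly IC pools and at -1.64 and -1.44 in the ethanol pools, within the range of the B cell markers on each array, while Irf8 lies above 0 in all 4 pools.

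Irf3 and Irf5, whose proteins are activated through sensors, were not called with poly IC at the level of messenger RNA. Irf3 was at 3029.8 in the naive sample, 2101 and 1509 in the poly IC pools, then 1735 and 2020.2 with ethanol. All pools were below the naive array and the treatments overlapped. Its difference with poly IC was -0.69 (95% interval -1.26 to -0.12, adjusted p 0.0637). It was -0.9 without the first poly IC pool and -0.48 without the second. Without the first or the second ethanol pool it stayed at -0.69, since the comparison does not use those pools. Only the estimate of the spread changed in those fits. The second Irf3 probe set was at 367.8 in the naive sample and 102.5 to 228.4 in the pools, and was above the brightest unspiked control on the naive array only.

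Irf5 was at 11869.6 in the naive sample, 7426 and 11007 in the poly IC pools, and 6558 and 5381 in the ethanol pools. The poly IC pools differed from each other by more than those of Irf1 or Irf4, and the second of them was close to the naive array. The difference with poly IC was -0.38 (95% interval -0.92 to 0.16, adjusted p 0.258), an interval that holds both no change and a fall. It was -0.11 without the first poly IC pool (adjusted p 0.797) and -0.66 without the second (adjusted p 0.101).

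With ethanol added to poly IC, Irf7 was lower and Irf4 was higher than with poly IC alone. Mean Irf7 signal was 19883 ± 5808 (SD, n = 2) with poly IC and 9775 ± 747.5 (SD, n = 2) with ethanol added, 2.03-fold lower. Mean Irf4 signal was 2421 ± 47.9 (SD, n = 2) and 4152.5 ± 434 (SD, n = 2), 1.72-fold higher. These 2 of 7 genes passed the test, 28.6% against 10.6% of all genes tested (5.77% called higher and 4.8% lower). The treatments did not overlap for 5 of 7 genes, 71.4% where 54.7% of all genes did not overlap. The median difference was -0.13 over the members and 0.08 over all genes. Of all genes 322 were called higher and 268 lower, and with arrays centred on their medians 165 and 254 were.

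The fall of Irf7 was -0.98 (SE 0.195, 95% interval -1.41 to -0.54, adjusted p 0.0133). The second Irf7 probe set was 3885 and 4106 with poly IC, then 2568 and 3175 with ethanol, without overlap. With every probe set tested on its own and no filter, its difference of -0.45 was not called (adjusted p 0.255). In that fit the brightest Irf7 probe set was not called either (-0.98, adjusted p 0.0581). Without the second poly IC pool, the one with the high 18S signal and the highest Irf7, the Irf7 difference was -0.68 and was not called (adjusted p 0.152). It was called under 11 of 14 alternatives, and its sign was the same under all 14.

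The rise of Irf4 was 0.72 (SE 0.162, 95% interval 0.36 to 1.08, adjusted p 0.0223). It was not called with arrays centred on their medians (0.62, adjusted p 0.0542) or with every probe set tested on its own (adjusted p 0.0528). Nor was it called without the intensity trend (adjusted p 0.0812), without the first poly IC pool (0.74) or without the second (0.70). B cell markers moved the same way, with 6 of 12 called higher, none called lower and a median of 0.71, and their part in the Irf4 result was again not tested. Of the 10 tested macrophage markers none was called in either direction.

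The other members were not called. Irf5 had the largest difference among them, -0.59 (95% interval -1.03 to -0.15, adjusted p 0.0926), with means of 9216 ± 2532 (SD, n = 2) and 5969.6 ± 832 (SD, n = 2). Without the first ethanol pool it was -0.72, and without the second poly IC pool it was -0.31. Irf9 was -0.45 (95% interval -0.79 to -0.10, adjusted p 0.0985). It was -0.56 without the first ethanol pool and -0.29 without the second poly IC pool. For these genes both ethanol pools were below both poly IC pools. Irf1 was -0.13 (95% interval -0.38 to 0.12), Irf8 was -0.11 (95% interval -0.46 to 0.24) and Irf3 was 0.06 (95% interval -0.40 to 0.52). These 3 intervals hold 0, and a difference between the genes' responses was not tested.

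**Figure D4:**
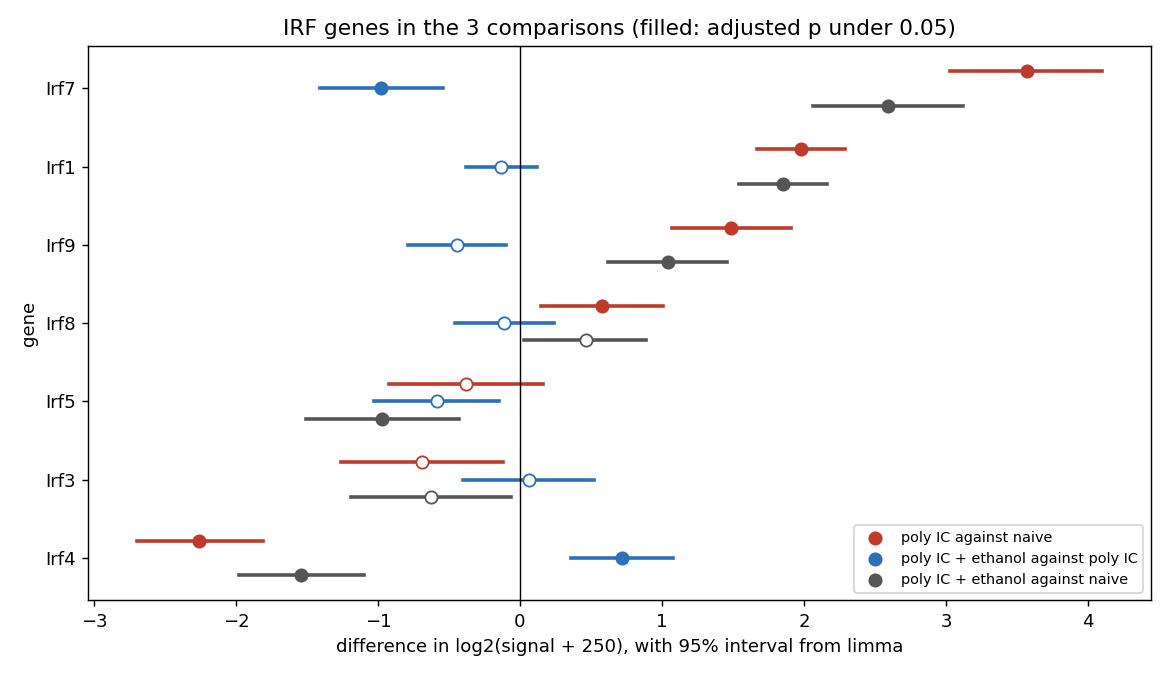
Fitted difference in log2(signal + 250) of the 7 IRF genes in each of the 3 comparisons; points are limma estimates, bars are 95% intervals and filled points have an adjusted p under 0.05. Irf7 rises by 3.57 with poly IC and is 0.98 lower when ethanol is added, and Irf4 falls by 2.26 and is 0.72 higher.

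Against the naive array, the ethanol pools still had higher Irf7, Irf1 and Irf9 and lower Irf4. Irf7 was 6.92-fold higher in mean signal (2.59, adjusted p 4.75e-05), Irf1 3.69-fold (1.85, adjusted p 1.01e-05) and Irf9 2.11-fold (1.04, adjusted p 0.00429). Irf4 was 3.01-fold lower (-1.54, adjusted p 0.000498). Irf5 was called here alone of the 3 comparisons, 1.99-fold lower (-0.97, 95% interval -1.51 to -0.43, adjusted p 0.0224). Irf8 (0.46, adjusted p 0.135) and Irf3 (-0.63, adjusted p 0.127) were not called. Without the first ethanol pool Irf8 was 0.56, and without the second Irf3 was -0.72. In all 3 rose and 2 fell of 7, 71.4% against 16.6% of all genes (8.39% higher and 8.26% lower). Both ethanol pools were on the same side of the naive array for all 7 genes and for 80.8% of all genes. The 3 comparisons share arrays, so their values are given side by side and are not independent of each other.

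The pathway around the family was read from lists of genes by role. Members of several lists are counted in each. A gene that is bright only after poly IC passes the filter on mean signal through that group, which tilts the counts toward a rise. Of all genes tested, 11.7% were called higher and 20.1% lower with poly IC. With ethanol added to poly IC, 5.77% were called higher and 4.8% lower. Among RNA sensors and kinases upstream of IRFs, 10 of 22 listed genes were tested, of which 7 rose and 1 fell with poly IC (median 1.14). Ifih1, the double-stranded RNA sensor MDA5, went from 1766.6 in the naive sample to 44582 and 45799.8 in the poly IC pools, then 26601 and 23069.9 with ethanol. Its rise was 4.49 (adjusted p 2.5e-08) and its fall with ethanol -0.86 (adjusted p 0.00375). That fall was not called without the intensity trend (adjusted p 0.0659). Eif2ak2, the kinase PKR, rose by 2.74 and fell by 0.98 with ethanol, and Ikbke, a kinase of IRF3 and IRF7, rose by 2.41 and differed by -0.24 with ethanol (adjusted p 0.312). Ifih1 and Eif2ak2 were the 2 sensors and kinases called with ethanol. The Eif2ak2 call was lost without either poly IC pool (adjusted p 0.0604 and 0.0867).

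Among interferon receptors and JAK-STAT genes, 12 of 14 were tested, 7 rose and 2 fell with poly IC (median 0.87), and 2 fell with ethanol. Usp18, which restrains the interferon receptor, was at 659.7 in the naive sample, 50658 and 64772 with poly IC, then 24548 and 20263 with ethanol, a rise of 5.98 and then a fall of 1.35 (adjusted p 0.0012). Jak2 was the other gene that fell with ethanol (-0.75, adjusted p 0.0162). That call was lost without either poly IC pool (adjusted p 0.0869 and 0.162). The feedback inhibitors Socs1 and Socs3 rose by 4.11 and 3.34 with poly IC, and with ethanol differed by -0.30 (adjusted p 0.184) and 0.08 (adjusted p 0.605).

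DNA-binding partners and coactivators went both ways. Of 13 tested of 16, 4 rose and 5 fell with poly IC (median 0.21), and with ethanol 3 rose and 0 fell. Spib, an Ets factor that binds DNA together with IRF4 and IRF8 and is itself a B cell marker, was at 12716.7 in the naive sample, 1233 and 1777 in the poly IC pools, then 3784 and 4419 with ethanol. Like Irf4 it fell (-2.90) and was higher with ethanol (1.32, adjusted p 0.00389). The difference with ethanol was not called without the intensity trend (adjusted p 0.0511). With every probe set tested on its own, a second Spib probe set fell as well but was not called with ethanol (0.12, adjusted p 0.871). Ets1 fell by 2.59 and was higher with ethanol by 1.25 (adjusted p 0.0036). In the fit of every probe set, its second probe set was not called with ethanol (0.70, adjusted p 0.153).

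Of modifiers and inhibitors of IRF proteins, 9 of 12 were tested, 5 rose with poly IC (median 1.48) and 3 fell with ethanol. Trim21, a ubiquitin ligase that acts on IRF proteins, rose by 2.67 and fell with ethanol by 0.70 (adjusted p 0.00858), a call that was lost without either poly IC pool (adjusted p 0.0622 and 0.114). Nmi rose by 1.48 and fell by 1.28 with ethanol, a call lost without the second poly IC pool (adjusted p 0.0612). Tnfaip3, the NF-kB inhibitor A20, rose by 5.29 and differed by -0.01 with ethanol (adjusted p 0.973).

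**Figure D5:**
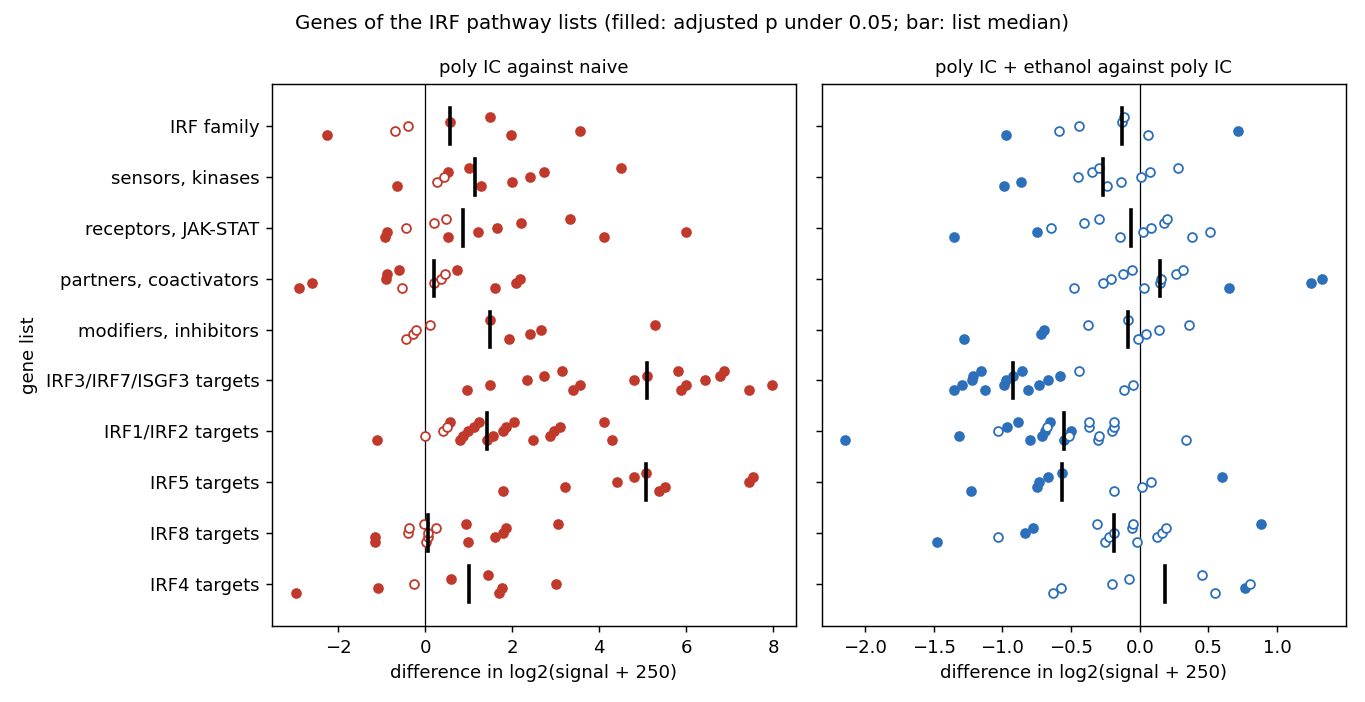
Fitted difference in log2(signal + 250) of every tested gene in 10 lists (the family and 9 pathway lists), for poly IC against naive on the left and poly IC plus ethanol against poly IC on the right; a point is 1 gene, filled at an adjusted p under 0.05, and the bar is the list median. The medians of the IRF3, IRF7 and ISGF3 targets are 5.09 and -0.92, and those of the family are 0.58 and -0.13.

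Of interferons and targets of IRF3, IRF7 and ISGF3, 17 of 28 were tested, Irf7 and Irf9 among them. With poly IC 17 rose (median 5.09, the same with the 5 genes whose naive signal was below the control at their bounds), and with ethanol 14 fell and none rose (median -0.92). Ifit3, an interferon-induced antiviral gene, was at 261.1 in the naive sample, 52626.5 and 59419 with poly IC, then 24607 and 23287 with ethanol, at least 186-fold higher with poly IC. Its fall with ethanol was -1.22 (adjusted p 0.000775). The gene of the antiviral protein viperin, Rsad2, was at least 206-fold higher with poly IC and fell by 1.30 with ethanol (adjusted p 0.000537). A lower bound is given for these genes because the naive signal lay below the brightest unspiked control. They passed the filter through the treated arrays.

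Of targets of IRF1 and IRF2, 21 of 22 were tested, 17 rose and 1 fell with poly IC (median 1.43), and 10 fell and none rose with ethanol (median -0.55). Irf1 itself was not called with ethanol. Gbp2, a guanylate-binding protein, was at 6363 in the naive sample, 49779.9 and 53377 in the poly IC pools, then 31642 and 27537 with ethanol. It rose by 2.97 and fell by 0.80 with ethanol (adjusted p 0.00389), a fall not called without the intensity trend (adjusted p 0.0726). Cxcl9, a chemokine for T cells, was 5715 and 5189.6 with poly IC, then 1168 and 925.5 with ethanol, a fall of 2.14 (adjusted p 0.000537). Casp4 rose by 2.87 and differed by -0.20 with ethanol (adjusted p 0.387).

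Of IRF5 targets, 9 of 11 were tested, 9 rose with poly IC (median 5.06, and 5.37 with 4 genes at their bounds), and with ethanol 5 fell and 1 rose. Il1b, an inflammatory cytokine, fell by 1.23 with ethanol (adjusted p 0.00613), a call lost without the first poly IC pool (adjusted p 0.059). The gene that rose, named after its values were seen, was Il6, at 18292 and 15169 in the poly IC pools, then 24745 and 25951 with ethanol (0.60, adjusted p 0.0311).

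Of IRF8 targets and lineage genes, 15 of 18 were tested, 6 rose and 2 fell with poly IC (median 0.06), and 1 rose and 3 fell with ethanol (median -0.18). Fcgr1, a high-affinity Fc receptor, was at 3323 in the naive sample, 26225 and 33345 with poly IC, then 12016 and 9109 with ethanol. It rose by 3.06 and fell by 1.48 with ethanol (adjusted p 0.00127), and its other probe set was called in the same directions. Of IRF4 targets, 8 of 11 were tested, 5 rose and 2 fell with poly IC (median 1.02, and 1.05 with 3 genes at their bounds), and 1 rose with ethanol. Fcer2a, a low-affinity IgE receptor and B cell marker, was at 4208.9 in the naive sample and 162.9 and 529.6 with poly IC (-2.97). Only the first of these pools was below its brightest unspiked control. Il10, an anti-inflammatory cytokine, was at least 6.76-fold higher with poly IC. The gene that rose with ethanol was Cd83, at 13239.6 and 12701 in the poly IC pools, then 21286 and 23309 with ethanol (0.77, adjusted p 0.00676), a call lost without either poly IC pool (adjusted p 0.0511 and 0.0805). With every probe set tested on its own, a second Cd83 probe set was not called with ethanol (0.40, adjusted p 0.156).

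Neutrophil markers moved with the induced genes. Their sum over 15 markers was 49770.7 in the naive sample, 162208 and 123779.7 with poly IC, then 69305 and 59269 with ethanol. Of 13 tested, 8 rose and 1 fell with poly IC, and none rose and 6 fell with ethanol. Without S100a8, the brightest of them, the sum was 49206 in the naive sample, 105390.0 and 83438 in the poly IC pools, and 58665 and 49061 in the ethanol pools. The poly IC pools were thus the highest, as for Irf7, and the part of neutrophils in the results for Irf7 and the target lists was not tested. Of the 15 markers, 7 were below the unspiked control in the naive sample, 2 in each poly IC pool, and 5 and 3 in the ethanol pools. Mast cell markers summed to 22262 in the naive sample, 62026 and 35853 with poly IC, then 32003 and 28687 with ethanol. Without Hdc they summed to 19846, 33572 and 10366, then 19294 and 17420. Erythroid markers summed to 1801, 19095 and 34933, then 20071 and 11997. T and NK cell markers summed to 9041, 13886 and 11169, then 7865 and 9916. The part of these cells was not tested.

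Members differed from each other more than from some genes outside the family. The distance between profiles was the root mean square of differences in log2(signal + 250) over the 5 arrays, after each profile was centred on its own mean. Between members it was smallest for Irf1 and Irf9 (0.314) and largest for Irf4 and Irf7 (2.14). The nearest gene to Irf7 was Daxx (0.122), then Ifi204 (0.159) and Tor3a (0.187). Daxx was at 2223 in the naive sample, 29306 and 35938.5 in the poly IC pools, then 16177 and 16425 with ethanol. The nearest to Irf4 was Cpt1a (0.059), at 18224 in the naive sample, 3859 and 3573 with poly IC, then 6361 and 6690.3 with ethanol, then Nbr1 (0.097) and Usp48 (0.122). For Irf1 the nearest were Tnip1 (0.057), Nfkb2 (0.067) and Lcp2 (0.070), and for Irf9 they were Tnfrsf11a (0.043), Selp (0.061) and Ier3 (0.062). Irf8 was nearest to Cct6a (0.038), Xbp1 (0.048) and Atp6v1a (0.061), and Irf3 to Chchd5 (0.025), Bmi1 (0.041) and Poldip2 (0.044). The nearest gene to Irf5, Tubb2a at 0.141, was further off than the nearest gene of any other member, and Hes1 (0.158) and Ggnbp2 (0.160) followed. With 5 arrays in 3 groups, such distances describe these arrays, and they were given no test.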

How the data were processed

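RNA of 5 samples of mouse peritoneal macrophages was measured on 1 array each. The deposited values are intensities, 1 linear signal per probe set and array, made per the labels with Microarray Suite 5.0 and scaled globally to a target of 2500; Data Mining Tool 3.0 is also named there. Global scaling hides a change in total RNA. Detection calls were not used, and the number of arrays limits precision.

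Of 12488 probe sets, 66 were controls. Of the rest, 10833 had 1 gene symbol, 396 several and 1193 none. Symbols were updated by Entrez ID through RefSeq GRCm38.p6 (10817 found). A mean signal at or above the 40th percentile (513) was required, which 6675 probe sets met, and the brightest per gene gave 5581 genes. Linear models of log2(signal + 250) with a mean per group were fitted in limma 3.58.1 under R 4.3.3 with lmFit and a trended eBayes, with two-sided p-values and 2 residual degrees of freedom plus 7.63 from the prior. The script was tested on simulated data. Where the mean signal of a group lay below the brightest of 19 unspiked controls, the fold is a lower bound against that control. Python 3.11.15 with matplotlib 3.10.9 drew the figures.

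Groups came from sample titles. Named genes were all members, the 3 genes of each list with the largest moderated statistic in each comparison, the 3 nearest profiles of each member and the leading marker of each cell type, of which some are printed. The members and lists were chosen with earlier results of these data known. Alternatives changed the offset, scaling, filter, choice of probe set, variance trend and samples, and added a replicate block. Same-numbered pools deviated together with a correlation of 0.0501, so the numbers were not taken to pair the pools. P-values weigh a difference against a spread between pools that is partly borrowed from all genes. The naive array, without a replicate, added nothing to that spread.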

Additional observations from a re-analysis of the deposited data

How the results depend on the processing

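With poly IC against naive, Irf1, Irf4, Irf7 and Irf9 were called under all 14 alternatives, Irf8 under 9, Irf3 under 4 and Irf5 under 0. With ethanol against poly IC, 2 members were called, against 1 with arrays centred on their medians, 0 with every probe set tested without a filter, 0 without the intensity trend, and 0 to 4 when a pool was left out. The call of Irf4 was kept under 9 alternatives and that of Irf7 under 11. With ethanol against naive, Irf1, Irf4, Irf7 and Irf9 were called under all 14 and Irf5 under 11. Differences that changed sign, none of them called, were all for ethanol against poly IC: Irf1 was 0.05 with quantile normalization, Irf3 was -0.04 with centred arrays and with quantile normalization and -0.15 to 0.27 when a pool was left out, and Irf8 was -0.27 to 0.04 when a pool was left out. Over all genes, the 590 called for ethanol against poly IC became 324 with no filter, 280 with every probe set and 86 without the trend, and 139 to 1076 when a pool was left out. The 1775 for poly IC against naive ranged from 1158 to 2367 when a pool was left out. The 929 for ethanol against naive became 579 without the trend and 720 to 1520 when a pool was left out. In each comparison fewer were called with no filter, or with every probe set tested, than in the main fit. The prior gave 47.8 and 44.3 degrees of freedom without the first and the second ethanol pool, against 7.63 in the main fit. Calls in those fits thus rest on a different estimate of the spread. The cause of the other changes was not tested. With the replicate block, 6, 3 and 5 members and 1986, 838 and 1173 genes were called for poly IC against naive, ethanol against poly IC and ethanol against naive, but the pools share only a number.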
